A study of Mus musculus with 24 samples.

Results

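Podoplanin and 6 proteins that bind it or act on its short cytoplasmic tail were followed through 4 derivatives of EO771, a mammary carcinoma line of the mouse. The members were taken by gene symbol, as Pdpn itself, the linker genes Ezr, Msn and Rdx, and the partner genes Cd44, Cd9 and Lgals8, and all 7 were found among the 13915 genes that both count tables list. The 6 partners were expressed in every derivative and moved by modest amounts, whereas the Pdpn transcript was near 0 in the cells that had not been sorted as PDPN-positive. Ezr and Msn mRNA fell in the PDPN-positive cells without CCR7, and Ezr rose in the PDPN-positive cells with CCR7. Rdx was higher and Cd44 was lower in every comparison that set CCR7-carrying cells against cells without it. Lgals8 was lower in both PDPN-positive derivatives than in the vector control, and was lower by less in the PDPN-negative CCR7 cells.

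X2 cells carried the retroviral control vector, CCR7 cells were the PDPN-negative sort of cells transduced with Ccr7, CCR7-PDPN cells were the PDPN-positive sort of the same transduced cells, and X2-PDPN cells were sorted from the vector control for PDPN that had appeared spontaneously. The vector also held the tdTomato reporter, all derivatives were kept under G418 selection, and no clones were picked, so each derivative was 1 uncloned population. Poly(A) RNA gave 24 libraries in 2 batches. There were 4 technical replicates each of X2, CCR7 and CCR7-PDPN in batch 1 and of X2, X2-PDPN and CCR7-PDPN in batch 2. The p-values therefore measure the spread between technical replicates and not between independently made populations.

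Podoplanin is a small mucin-like membrane glycoprotein of lymphatic endothelium, fibroblastic reticular cells and many invasive tumour edges. A few basic residues of its tail hold ezrin, moesin and radixin, the ERM proteins, which tie membrane proteins to the actin cortex. In the membrane it associates with the hyaluronan receptor CD44 and the tetraspanin CD9, and outside the cell it is bound by the lectin galectin-8, by CLEC-2 on platelets and by the chemokine CCL21, which is also a ligand of CCR7.

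The 12 libraries of batch 1 summed to 22275468 to 33395418 counts, and those of batch 2 to 22788542 to 35721027. Of the markers of the carcinoma line, Krt8 and Vim were strong, with group means of 425 to 562 and 1853 to 2340 TPM, a count scaled by gene length and library total, but the epithelial genes Krt18, Epcam and Cdh1 had at most 9, 2 and 7 counts in a batch 1 library. Of 8 leukocyte markers 5, of 10 fibroblast markers 6 and of 7 endothelial markers 4 had 3 counts or fewer in every batch 1 library, among them Cd3e, Thy1, Lum and Prox1, and Ptprc had at most 4. The markers that were expressed did move between the derivatives. The summed leukocyte list, nearly all of it Cd68, ranged from 131 to 157 TPM in X2, from 57.2 to 69.6 in X2-PDPN, from 42.3 to 57.9 in CCR7 and from 22.6 to 32.4 in CCR7-PDPN, and the summed fibroblast list, carried by Acta2, Pdgfra and Pdgfrb, ranged from 205.5 to 219 TPM in X2-PDPN, from 150.1 to 174 in CCR7, from 161 to 169 in X2 and from 119.5 to 129.5 in CCR7-PDPN. In bulk RNA, fewer cells of a type and less RNA per cell cannot be told apart. Their part in the results was not tested.

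The promoters of Pdpn, Ezr and Msn are shown because Pdpn differed most between the derivatives and Ezr and Msn varied together. Each run is the 250 bases before the gene's start in RefSeq on GRCm38.p6, written 5′ to 3′ on the gene's own strand, with Pdpn at chr4:143299565-143299814 on the minus strand, Ezr at chr17:6782781-6783030 on the minus strand and Msn at chrX:96095795-96096044 on the plus strand. Capitals mark matches on either strand to the GC box GGGCGG, which Sp1 binds, to the AP-1 site TGANTCA and to the E-box CACGTG.
Pdpn: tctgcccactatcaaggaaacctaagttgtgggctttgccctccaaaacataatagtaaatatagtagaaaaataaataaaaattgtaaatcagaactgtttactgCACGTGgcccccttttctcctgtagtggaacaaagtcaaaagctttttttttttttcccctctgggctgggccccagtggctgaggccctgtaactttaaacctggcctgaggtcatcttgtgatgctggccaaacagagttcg
Ezr: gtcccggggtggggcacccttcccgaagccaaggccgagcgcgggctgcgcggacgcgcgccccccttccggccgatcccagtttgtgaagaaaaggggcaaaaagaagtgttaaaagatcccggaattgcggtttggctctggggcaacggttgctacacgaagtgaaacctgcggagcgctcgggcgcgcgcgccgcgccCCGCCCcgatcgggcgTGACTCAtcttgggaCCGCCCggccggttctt
Msn: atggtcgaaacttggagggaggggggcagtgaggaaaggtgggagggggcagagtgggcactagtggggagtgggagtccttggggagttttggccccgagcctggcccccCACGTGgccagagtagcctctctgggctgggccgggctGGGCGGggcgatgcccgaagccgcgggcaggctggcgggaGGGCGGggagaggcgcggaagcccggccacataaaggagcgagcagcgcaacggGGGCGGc
The Pdpn window held 1 E-box and neither of the other motifs, and 43.2% of its bases were G or C. The Ezr window held 2 GC boxes and 1 AP-1 site at 67.2% G or C, and the Msn window held 3 GC boxes and 1 E-box at 71.6%. No match overlapped another. Of 32851 RefSeq promoters of the same length, 32.7% held the GC box, 6.75% the AP-1 site and 6.02% the E-box. The matches are descriptions of the letters and were not tested as binding sites.

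Because the sorting was done on surface PDPN, the Pdpn transcript in PDPN-positive against other cells is a check of the labels, given without a test. Pdpn lies on chromosome 4 from 143267431 to 143299564 (GRCm38, minus strand). The 4 X2 libraries of batch 1 held 2, 2, 3 and 0 Pdpn reads, and those of batch 2 held 2, 4, 5 and 8. A library at 0 could by counting error stand for up to 3 reads. The PDPN-negative CCR7 libraries held 20, 12, 10 and 7 reads, and all 4 lay above every X2 library of the same batch. In contrast, the CCR7-PDPN libraries held 842, 839, 716 and 697 reads in batch 1 and 576, 738, 753 and 688 in batch 2, and the X2-PDPN libraries held 781, 924, 751 and 700. Every PDPN-positive library thus matched its label.

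On the per-length scale, mean Pdpn in CCR7-PDPN was 52.0 ± 3.40 TPM in the first batch and 49.9 ± 1.63 TPM in the second, and in X2-PDPN it was 52.9 ± 0.261 TPM (SD, n = 4 each). The corresponding level was 0.855 ± 0.300 TPM in CCR7, and 0.128 ± 0.0879 and 0.330 ± 0.161 TPM in X2 of batch 1 and batch 2 (SD, n = 4 each). As a ratio of summed read rates, CCR7-PDPN held 60.4 times the Pdpn reads of CCR7 (95% interval 45.6 to 81.8, counting error only), and X2-PDPN held 155.5 times those of X2 (99.4 to 259). The PDPN-negative CCR7 cells held 6.75 times the rate of X2 of the same batch (3.04 to 17.7), from 49 against 7 reads in all. X2 of batch 2 held 19 reads. The study's flow cytometry found a small share of PDPN-positive cells left in the CCR7 sort, larger than in X2. Their part in this ratio was not tested. The Pdpn level of the CCR7 cells was a small part of that in the sorted positive cells.

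Pdpn can be compared between the PDPN-positive populations of batch 2, since both passed the same kind of sort. The study's flow cytometry gave a larger share of PDPN-positive cells in CCR7-PDPN than in X2-PDPN. The levels are therefore means over populations of unlike purity. X2-PDPN libraries ranged from 52.6 to 53.1 TPM and CCR7-PDPN libraries from 48.2 to 51.5 TPM, so the groups were apart in TPM, but they overlapped in CPM, counts scaled to the library total with TMM factors. The log2 fold change of CCR7-PDPN against X2-PDPN was -0.061 ± 0.050 (SE, n = 4 per group), with a 95% interval from -0.16 to 0.04 and an adjusted p of 0.3 in edgeR's quasi-likelihood test. As a ratio of read rates, without the spread between libraries, CCR7-PDPN held 0.946 times the Pdpn reads of X2-PDPN (0.898 to 0.995, counting error only), an interval that ends just below 1.

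**Figure D1:**
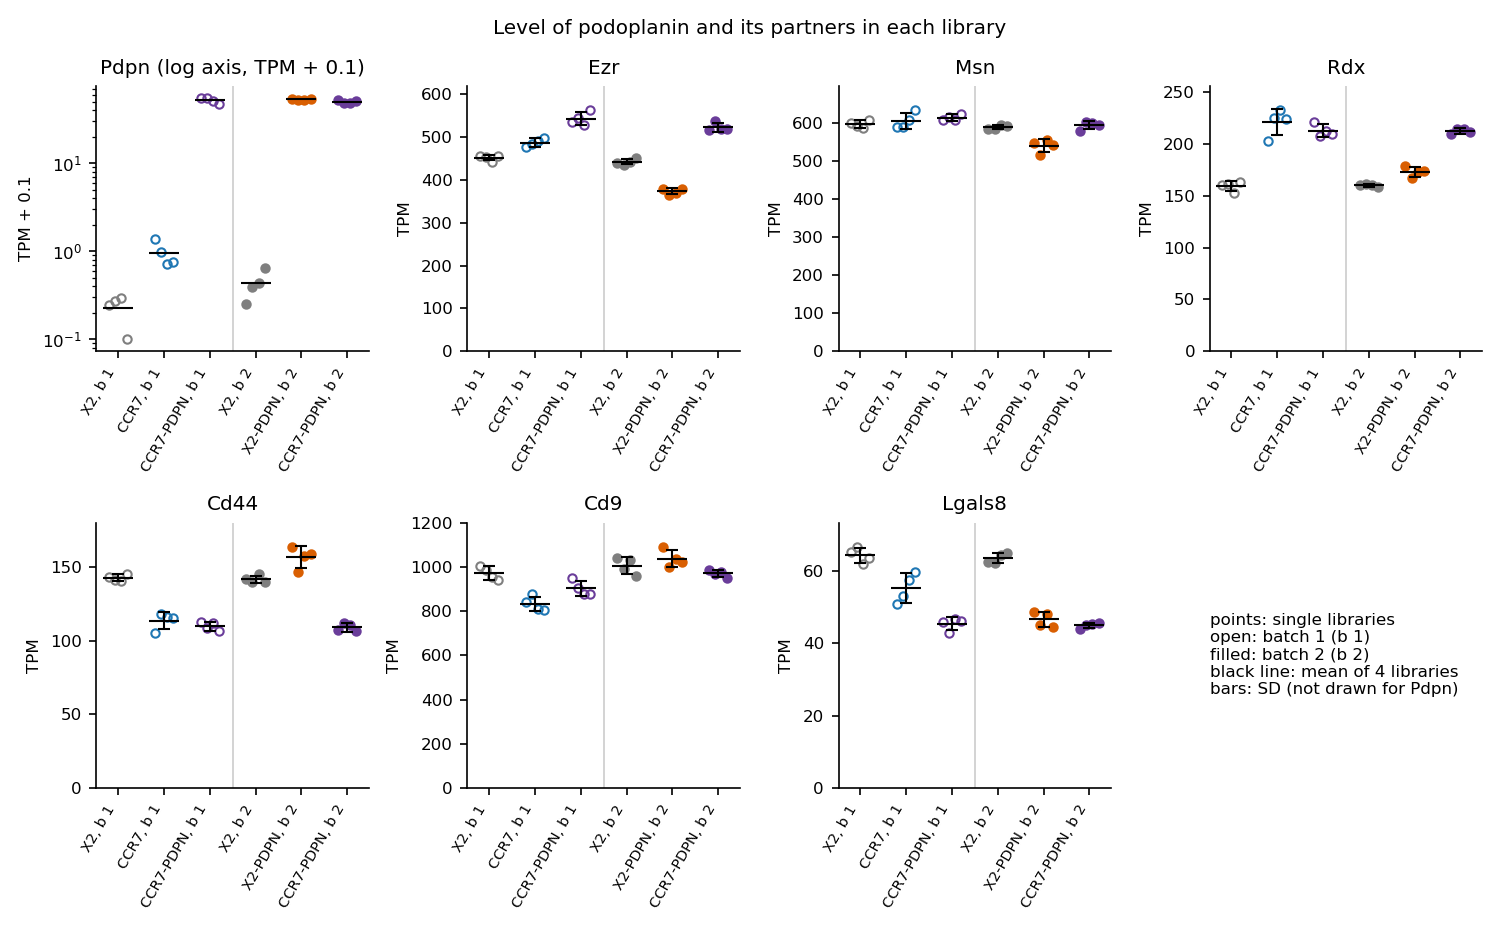
Level of each gene in each of the 24 libraries, in length-scaled counts (TPM; vertical axis from 0, except for Pdpn, which is on a log axis as TPM + 0.1). Points are libraries, open in batch 1 and filled in batch 2, black lines are means of 4 and bars are SD (not drawn for Pdpn). Ezr is lowest in X2-PDPN at 374 TPM and highest in CCR7-PDPN of batch 1 at 544 TPM, while Lgals8 drops from 64.4 and 63.6 TPM in X2 to between 45.0 and 46.7 TPM in the PDPN-positive groups.

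Reads of the ligands that podoplanin is known to meet on other cells were not found in batch 1. Clec1b, which encodes CLEC-2, and the chemokine genes Ccl21a and Ccl21b had 0 counts in every batch 1 library. Ccl19, a chemokine gene of the same list that is not counted among these ligands here, also had 0. X2-PDPN, which was in batch 2 only, was not analysed for these genes here. Hspa9, a mitochondrial chaperone listed among podoplanin's binding partners, was the only gene of that list to be tested. It stood at 1429 TPM in X2 and 1497 TPM in CCR7 of batch 1 and at 1030 TPM in CCR7-PDPN, and fell by 0.51 ± 0.043 on the log2 scale in CCR7-PDPN against CCR7 (adjusted p = 7.5e-08). In X2-PDPN against X2 it fell by 0.50 ± 0.026 (adjusted p = 1.2e-20), and its difference of these differences was -0.0072 ± 0.052. The genes near Hspa9 on its chromosome were not examined, and their part in both falls was not tested.

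The 3 ERM genes were strongly expressed in all libraries, with Msn at rank 212, Ezr at rank 288 and Rdx at rank 924 of 13915 genes by mean TPM. Among the partners, Cd9 ranked 118, Cd44 1593 and Lgals8 4031, and Pdpn ranked 6424. The coefficient of variation over the 4 libraries of a group lay between 0.820% and 7.30% for the 6 partners, so that differences of a few percent could be resolved between these technical replicates.

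Ezr encodes ezrin, the linker that is most typical of epithelial microvilli, and lies on chromosome 17 from 6738041 to 6782784. In batch 1 the X2 libraries read 456, 454, 443 and 457 TPM, the CCR7 libraries 477, 483, 492 and 499 TPM and the CCR7-PDPN libraries 536, 546, 529 and 563 TPM, so each group lay wholly above the one before. In batch 2 the X2 libraries read 440.5, 436, 443 and 451 TPM, the X2-PDPN libraries 379, 366, 369 and 380.2 TPM and the CCR7-PDPN libraries 516, 538, 518 and 520.0 TPM. Here X2-PDPN was below every X2 library, and CCR7-PDPN was above. Ezr rose by 0.10 ± 0.029 in CCR7 against X2 (adjusted p = 0.0046) and by 0.18 ± 0.029 in CCR7-PDPN against CCR7 (adjusted p = 3e-05), as log2 fold changes with their SE and n = 4 per group. It fell by 0.25 ± 0.026 in X2-PDPN against X2 (adjusted p = 2.4e-11), a change of -16.0%. With PDPN on both sides, its level in CCR7-PDPN exceeded that in X2-PDPN by 42.6%, at 0.51 ± 0.026 (adjusted p = 1.1e-21), the largest difference of any of the 6 partners in any of the 6 comparisons.

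Msn encodes moesin, the ERM protein that prevails in leukocytes and endothelium, and lies on chromosome X from 96096042 to 96168552. Its level varied little in batch 1, with X2 at 587 to 608 TPM, CCR7 at 588 to 633 TPM and CCR7-PDPN at 606 to 624 TPM, and none of the 3 comparisons there called it. The CCR7-PDPN against X2 difference of 0.063 ± 0.028 lay at an adjusted p of 0.054 and fell on the other side of the threshold under DESeq2 (0.049). In batch 2 the X2-PDPN libraries read 548, 515, 554 and 541 TPM, all below the X2 libraries at 583, 584, 593 and 592 TPM and the CCR7-PDPN libraries at 578, 603, 600.3 and 595 TPM. Msn fell by 0.13 ± 0.024 in X2-PDPN against X2 (adjusted p = 1.1e-05) and rose by 0.16 ± 0.024 in CCR7-PDPN against X2-PDPN (adjusted p = 1e-07). Msn mRNA was thus lower in X2-PDPN than in both other derivatives of the batch.

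Rdx encodes radixin, the third ERM protein, and lies on chromosome 9 from 52047173 to 52100463. In batch 1 the X2 libraries read 160.2, 161, 153 and 164 TPM, the CCR7 libraries 203, 225, 233 and 224 TPM and the CCR7-PDPN libraries 221, 207, 213 and 209.5 TPM. In batch 2 they read 160.2, 161, 161 and 158 TPM in X2, 179, 167, 173 and 174 TPM in X2-PDPN and 209, 215, 215 and 212 TPM in CCR7-PDPN. All libraries with CCR7 lay above all libraries without it. Rdx rose by 0.47 ± 0.036 in CCR7 against X2 (adjusted p = 5.7e-10) and by 0.32 ± 0.026 in CCR7-PDPN against X2-PDPN (adjusted p = 9.4e-15). Between CCR7-PDPN and CCR7 it differed by -0.029 ± 0.036, which was not called. X2-PDPN was also above X2, by 0.11 ± 0.026 (adjusted p = 0.00048).

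The genes around Rdx moved in the same direction. Among 66 tested genes within 5 Mb of its start, the median log2 fold change in CCR7 against X2 was 0.34, and 37 were called higher and 7 lower. The median of chromosome 9 was 0.33, against 0.0033 for all genes tested. In CCR7-PDPN against X2-PDPN the 64 neighbours had a median of 0.18 and chromosome 9 one of 0.17. With the neighbours' median subtracted, the Rdx difference was 0.13 in CCR7 against X2 and 0.14 in CCR7-PDPN against X2-PDPN. No other partner lay among neighbours with a median as far from 0 as those of Rdx in these comparisons. In X2-PDPN against X2 the 64 neighbours had a median of 0.088 and chromosome 9 one of 0.13, and 0.019 of the Rdx difference was left after subtraction. The part of the chromosome in the Rdx result was not tested.

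**Figure D2:**
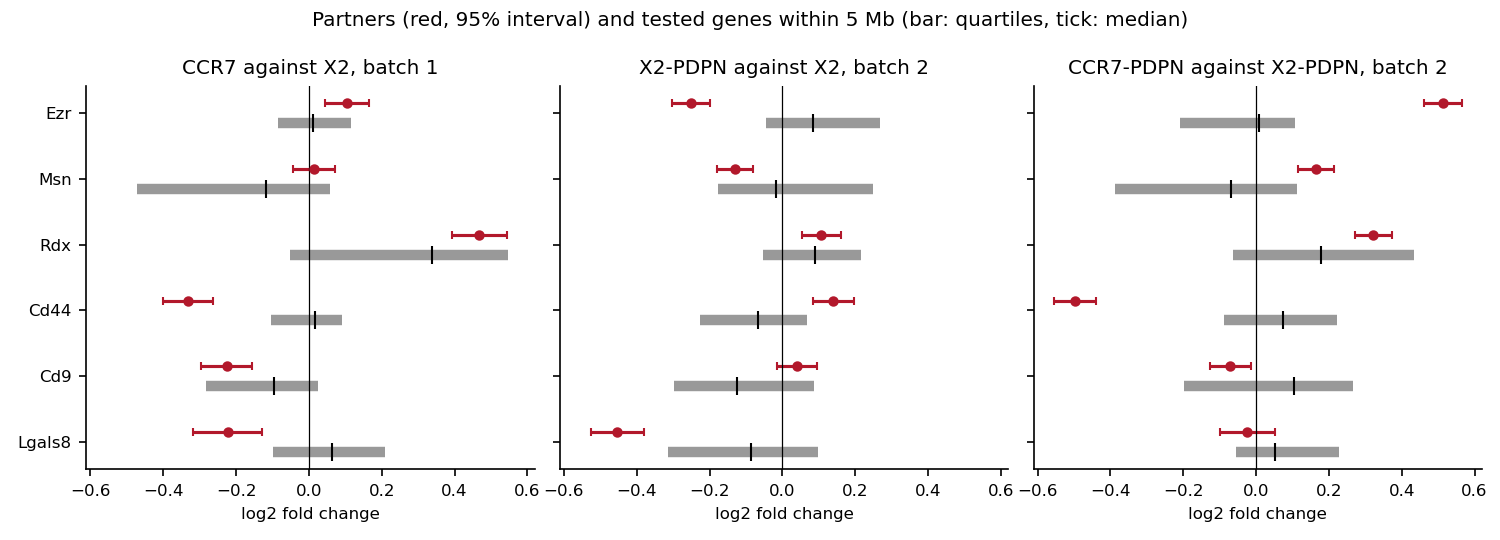
Log2 fold change of the 6 partners (red points with 95% intervals) and of the tested genes within 5 Mb of each (grey bars from the lower to the upper quartile, black tick at the median) in 3 comparisons. In CCR7 against X2 the neighbours of Rdx have a median of 0.34 and those of Ezr one of 0.012, and in CCR7-PDPN against X2-PDPN Ezr at 0.51 and Cd44 at -0.50 lie outside the quartiles of their neighbours.

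Summed over the 3 genes, the ERM level in batch 1 was 1183 to 1229 TPM for X2, 1268 to 1356 for CCR7 and 1349 to 1397 for CCR7-PDPN. In batch 2 it ran from 1182 to 1201 TPM in X2, 1304 to 1356 in CCR7-PDPN and only 1049 to 1106 in X2-PDPN. The sum of X2-PDPN was therefore below that of every other library. Ezr made up 37.4% ± 0.185 of the batch 1 sum for X2, 39.7% ± 0.516 for CCR7-PDPN of the same batch and 34.4% ± 0.554 for X2-PDPN (SD, n = 4). Msn made up 49.4% ± 0.269, 44.8% ± 0.270 and 49.7% ± 0.612 in the same groups, and Rdx 13.2% ± 0.195, 15.5% ± 0.580 and 15.9% ± 0.152. Both PDPN-positive derivatives, like CCR7 at 16.8% ± 0.688, held a larger Rdx share than X2, and they differed from each other in the Ezr and Msn shares.

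**Figure D3:**
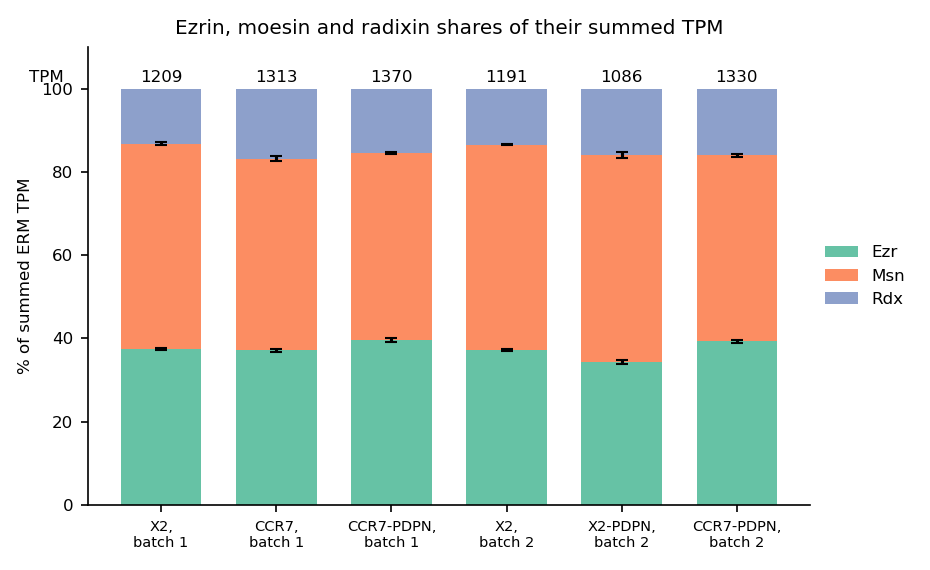
Share of Ezr, Msn and Rdx in the summed TPM of the 3 ERM genes, as stacked percentages from 0 (means of 4 libraries), with the summed TPM above each bar; error bars are the SD of the Ezr and the Msn share at the top of their block. Ezr takes 34.4% in X2-PDPN and 39.3% to 39.7% in CCR7-PDPN.

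Of the 9 listed regulators and adaptors of the ERM proteins, 8 were tested. In CCR7-PDPN against X2 of batch 1, 5 rose and 3 fell, with a median log2 fold change of 0.18 against 0.0018 for all genes, of which 60.9% were called (30.3% higher and 30.6% lower), and batch 2 gave 5 and 3 with a median of 0.19 beside 64.8% of all genes. Pip5k1a and Pip5k1c encode kinases that make the phosphoinositide by which ERM proteins are opened. Pip5k1a fell in each of the 6 comparisons, by 0.50 ± 0.030 in CCR7-PDPN against X2 of batch 1 (adjusted p = 5e-12), while Pip5k1c rose by 0.40 ± 0.066 there (adjusted p = 0.00014). Slk, a kinase that phosphorylates the ERM proteins, fell by 0.20 ± 0.032 in CCR7-PDPN against CCR7 (adjusted p = 3.7e-05), and had a difference of 0.026 ± 0.028 in X2-PDPN against X2 that was not called. Nf2, which encodes the related tumour suppressor merlin, rose by 0.18 ± 0.027 in CCR7 against X2 (adjusted p = 7.1e-06).

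Of 10 other listed membrane proteins that hold ERM proteins, 8 were tested. In CCR7 against X2 0 rose and 6 fell, with a median of -0.36 against 0.0033 for all genes, of which 49.3% were called. In CCR7-PDPN against CCR7 1 rose and 3 fell, with a median of -0.052 beside 41.6% of all genes called, and in X2-PDPN against X2 2 rose and 2 fell, with a median of 0.16 beside 56.8%. Sdc2, a syndecan, rose by 0.17 ± 0.043 in CCR7-PDPN against CCR7 (adjusted p = 0.0041). L1cam, a neural adhesion molecule, fell by 1.08 ± 0.056 in CCR7-PDPN against CCR7 (adjusted p = 5.5e-12) and fell by 1.45 ± 0.047 in X2-PDPN against X2 (adjusted p = 3.5e-28). It stood at 24.3 TPM in X2 and 8.26 TPM in CCR7-PDPN of batch 1, and at 8.84 TPM in X2-PDPN.

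Cd44 encodes the main hyaluronan receptor and lies on chromosome 2 from 102811141 to 102901665. The X2 libraries read 143, 141, 141 and 146 TPM in batch 1 and 142, 139.8, 145 and 140.3 TPM in batch 2. The CCR7 libraries read 105, 118, 116 and 116 TPM, and the CCR7-PDPN libraries 113, 108, 112 and 107 TPM in batch 1 and 107, 112, 110.4 and 106 TPM in batch 2. The X2-PDPN libraries read 164, 147, 157 and 159 TPM, all above X2. Cd44 fell by 0.33 ± 0.033 in CCR7 against X2 (adjusted p = 3.1e-08) and by 0.50 ± 0.028 in CCR7-PDPN against X2-PDPN (adjusted p = 1.2e-19), and rose by 0.14 ± 0.028 in X2-PDPN against X2 (adjusted p = 4.1e-05). CCR7-PDPN and CCR7 differed by -0.022 ± 0.033, with an interval from -0.09 to 0.05, and were not separated. Of 28 tested neighbours within 5 Mb, 0 had a log2 fold change below that of Cd44 in CCR7-PDPN against X2-PDPN, and their median was 0.073. The counts are per gene, so the standard and the variant exons of CD44 could not be told apart.

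Around Cd44, 15 of the 20 listed genes of hyaluronan and CD44 processing were tested in batch 1, and 4 rose and 4 fell in CCR7 against X2. The median was -0.052, against 0.0033 for all genes, of which 49.3% were called, a share close to that of the list. Adam10, a protease that sheds the CD44 ectodomain, rose by 0.73 ± 0.033 there (adjusted p = 8.4e-14), from 106 to 176 TPM, and Spp1, which encodes the CD44 ligand osteopontin, fell by 1.32 ± 0.035 (adjusted p = 1.8e-17), from 324 to 130.4 TPM. The part of neighbouring genes on the chromosome in the Adam10 rise was not tested. Mmp14, a membrane-bound metalloprotease, fell by 0.37 ± 0.033 (adjusted p = 7.5e-09). In X2-PDPN against X2, Spp1 rose by 0.54 ± 0.028 (adjusted p = 6.3e-21), to 465 TPM. The hyaluronan synthase genes Has1 and Has2 had 0 counts in every batch 1 library, whereas the third synthase gene, Has3, stood at 0.461 TPM in X2 and 1.06 TPM in CCR7 and rose by 1.17 ± 0.20 (adjusted p = 4.1e-05). Has3 had at most 61 counts in a library. The genes near it on its chromosome were not examined, and their part in its rise was not tested. Esrp1, which promotes inclusion of the variant exons of CD44, had at most 1 count in a batch 1 library.

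Cd9 encodes a tetraspanin that holds podoplanin in membrane microdomains, lies on chromosome 6 from 125460266 to 125494791 and was the most abundant of the 7. The X2 libraries read 1008, 989, 956 and 943 TPM in batch 1, the CCR7 libraries 840.4, 878, 812 and 808 TPM and the CCR7-PDPN libraries 953, 907, 877 and 879 TPM. All CCR7 libraries lay below all X2 libraries, and CCR7-PDPN overlapped with X2. Cd9 fell by 0.23 ± 0.034 in CCR7 against X2 (adjusted p = 8.8e-06) and rose by 0.14 ± 0.034 in CCR7-PDPN against CCR7 (adjusted p = 0.002). In batch 2 the group ranges were 960.4 to 1041 TPM in X2, 1001 to 1094 TPM in X2-PDPN and 952 to 989.6 TPM in CCR7-PDPN. X2-PDPN and X2 overlapped, and the difference of 0.040 ± 0.027 was not called. The differences of -0.084 ± 0.034 in CCR7-PDPN against X2 of batch 1 (adjusted p = 0.036) and -0.071 ± 0.027 in CCR7-PDPN against X2-PDPN (adjusted p = 0.023) were called with overlapping libraries, and lost the call when single libraries were left out.

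Among 18 listed tetraspanins and CD9 partners, 12 were tested, of which 7 rose and 4 fell in X2-PDPN against X2 and 2 rose and 7 fell in CCR7-PDPN against X2-PDPN. The medians were 0.13 and -0.19, against 0.0012 and 0.00013 for all genes, of which 56.8% and 63.2% were called. Ptgfrn, an immunoglobulin-family protein that binds CD9 directly, rose by 0.40 ± 0.028 in CCR7-PDPN against CCR7 (adjusted p = 3.1e-10) and by 0.46 ± 0.027 in X2-PDPN against X2 (adjusted p = 5e-19). Itga6, a laminin receptor subunit, rose by 0.53 ± 0.028 in X2-PDPN against X2 (adjusted p = 1.4e-20) and fell by 0.75 ± 0.028 in CCR7-PDPN against X2-PDPN (adjusted p = 2e-26). Cd81, the closest relative of Cd9, had at most 14 counts in a batch 1 library.

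Lgals8 encodes galectin-8, a lectin with a pair of carbohydrate-binding domains, and lies on chromosome 13 from 12439415 to 12464944. In batch 1 the X2 libraries read 65.4, 66.8, 61.9 and 63.6 TPM, the CCR7 libraries 51.0, 53.2, 57.5 and 59.9 TPM and the CCR7-PDPN libraries 46.0, 42.8, 46.8 and 46.3 TPM. The groups did not overlap. In batch 2 the X2 libraries read 62.5, 62.4, 64.4 and 65.2 TPM, the X2-PDPN libraries 48.8, 45.2, 48.1 and 44.6 TPM and the CCR7-PDPN libraries 44.1, 45.1, 45.4 and 45.6 TPM, and both PDPN-positive groups lay below X2. Lgals8 fell by 0.22 ± 0.046 in CCR7 against X2 (adjusted p = 0.00034), by 0.25 ± 0.047 in CCR7-PDPN against CCR7 (adjusted p = 0.00017) and by 0.45 ± 0.036 in X2-PDPN against X2 (adjusted p = 1.3e-14). CCR7-PDPN and X2-PDPN differed by -0.024 ± 0.037, with an interval from -0.10 to 0.05, and were not separated.

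Lgals8 shares 155 of its 3688 exonic bases, or 4.20%, with Heatr1, a ribosome biogenesis gene on the opposite strand that had 3301 to 5077 counts per batch 1 library against 1293 to 1921 for Lgals8. Heatr1 itself fell by 0.27 ± 0.065 in CCR7-PDPN against CCR7 (adjusted p = 0.0041) and by 0.12 ± 0.031 in X2-PDPN against X2 (adjusted p = 0.0012). The strand setting of the counting is not given in the sources used here, and the part of Heatr1 reads in the Lgals8 result was not tested. Of the other galectins, 5 of 7 were tested, and 1 rose and 3 fell in CCR7-PDPN against X2 of batch 1, with a median of -0.14 against 0.0018 for all genes, of which 60.9% were called. The gene that rose was Lgals7, by 1.70 ± 0.27 (adjusted p = 1.5e-05), from 1.60 to 5.25 TPM. Lgals9 fell by 0.65 ± 0.035 in CCR7-PDPN against CCR7 (adjusted p = 9e-12) and by 1.17 ± 0.031 in X2-PDPN against X2 (adjusted p = 4.7e-31). Lgals3 fell by 1.70 ± 0.042 in CCR7 against X2 (adjusted p = 1e-17), from 774 to 239 TPM. Lgals1, the most abundant galectin at 2856 to 3319 TPM, fell by 0.22 ± 0.033 in CCR7 against X2 (adjusted p = 9e-06).

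Taking the 6 partners as a group, 5 were called in CCR7 against X2 of batch 1, 2 higher and 3 lower, where 49.3% of all 13261 genes tested were called, 24% higher and 25.2% lower. In CCR7-PDPN against CCR7 3 were called, 2 higher and 1 lower, where 41.6% of all genes were called, 20.9% higher and 20.7% lower. In CCR7-PDPN against X2 of batch 1 the count was 5, 2 higher and 3 lower, beside 60.9% of all genes, 30.3% higher and 30.6% lower. Batch 2 gave 5 in X2-PDPN against X2, 2 higher and 3 lower, where 56.8% of 13314 genes tested were called, 28.2% higher and 28.5% lower. It gave 5 in CCR7-PDPN against X2-PDPN, 3 higher and 2 lower, beside 63.2%, with 31.2% higher and 32.0% lower, and 4 in CCR7-PDPN against X2, 2 in each direction, beside 64.8%, with 32.0% higher and 32.8% lower. With shares this high for all genes, being called says little about a partner, and the sizes and directions above are what sets them apart from one another. No partner passed an absolute log2 fold change of 1 in any of the 6 comparisons, a threshold that, together with the test, 6.48% of all genes passed in CCR7 against X2, 3.27% in CCR7-PDPN against CCR7 and 9.45% in CCR7-PDPN against X2 of batch 1. In batch 2 it was 5.05% in X2-PDPN against X2, 9.16% in CCR7-PDPN against X2-PDPN and 9.63% in CCR7-PDPN against X2. The median over the 6 partners lay between -0.10 and 0.070 in these comparisons. Comparisons within a batch share libraries, so that a high X2-PDPN level, for example, enters both of the comparisons that use it.

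**Figure D4:**
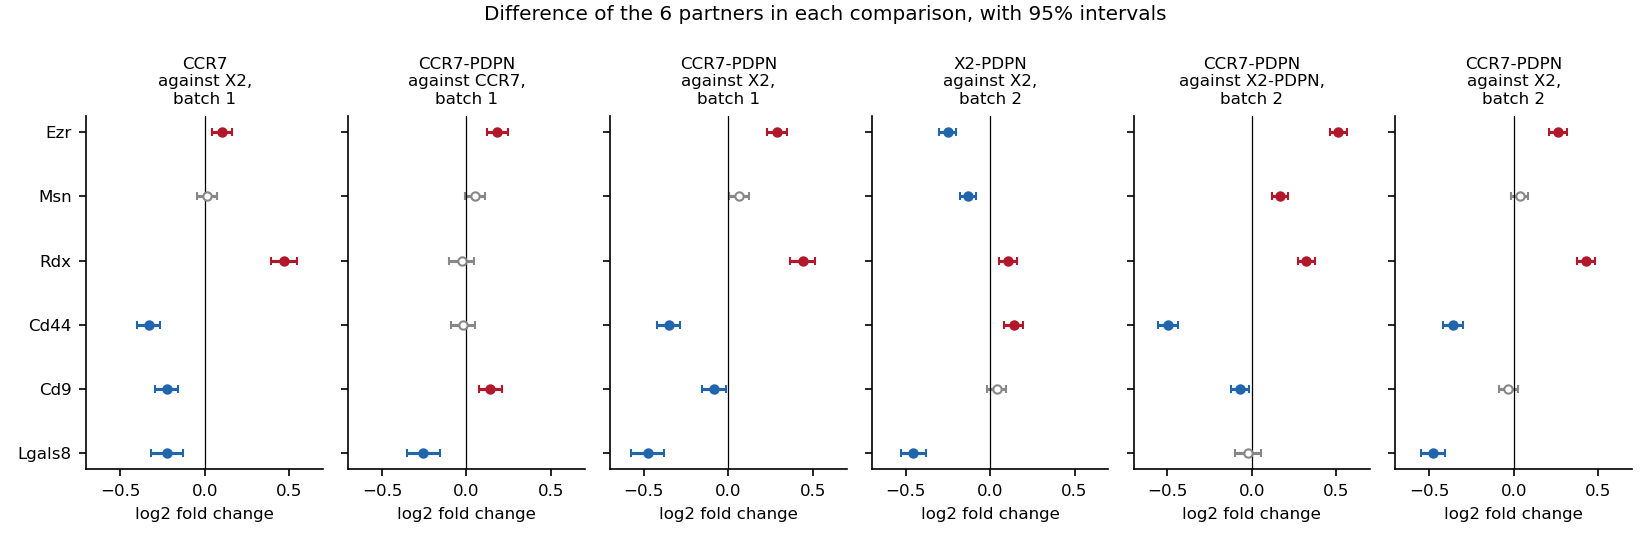
Log2 fold change of the 6 partners in the 6 comparisons within a batch, with 95% intervals; filled red points are called higher, filled blue points called lower, and open grey points not called (edgeR, adjusted p threshold 0.05). Ezr points to the left at -0.25 in X2-PDPN against X2 and to the right in the other 5 comparisons, and Cd44 lies at -0.33 to -0.50 where CCR7-carrying cells are set against cells without it.

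The design also allowed a test of whether the difference that goes with PDPN is itself different with CCR7. It set CCR7-PDPN minus CCR7 of batch 1 against X2-PDPN minus X2 of batch 2, over all 24 libraries and 13690 genes, so that batch and CCR7 background cannot be told apart. Ezr showed the largest such difference among the partners, at 0.44 ± 0.037 (SE, adjusted p = 3.7e-12), with a rise of 0.18 in the one and a fall of 0.25 in the other. Msn differed by 0.18 ± 0.035 (adjusted p = 5.6e-05) and Lgals8 by 0.20 ± 0.057 (adjusted p = 0.0044). Lgals8 fell by 0.25 with CCR7 and fell by 0.45 without it. Rdx differed by -0.13 ± 0.043 (adjusted p = 0.013) and Cd44 by -0.16 ± 0.044 (adjusted p = 0.0038). Cd9 differed by 0.11 ± 0.045 and was not called (adjusted p = 0.057), but it was called when any 1 of 4 single libraries was left out (CCR7 replicate 2, CCR7-PDPN replicate 3 of batch 1, X2 replicate 4 of batch 2 or X2-PDPN replicate 1; adjusted p 0.019 to 0.044). With the median of its neighbours subtracted, the value was -0.14. The test called 5 of the 6 partners, 3 higher and 2 lower, beside 40.8% of all genes, 20.3% higher and 20.5% lower, and none of the 6 passed an absolute log2 difference of 1, which 5.44% of all genes did.

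**Figure D5:**
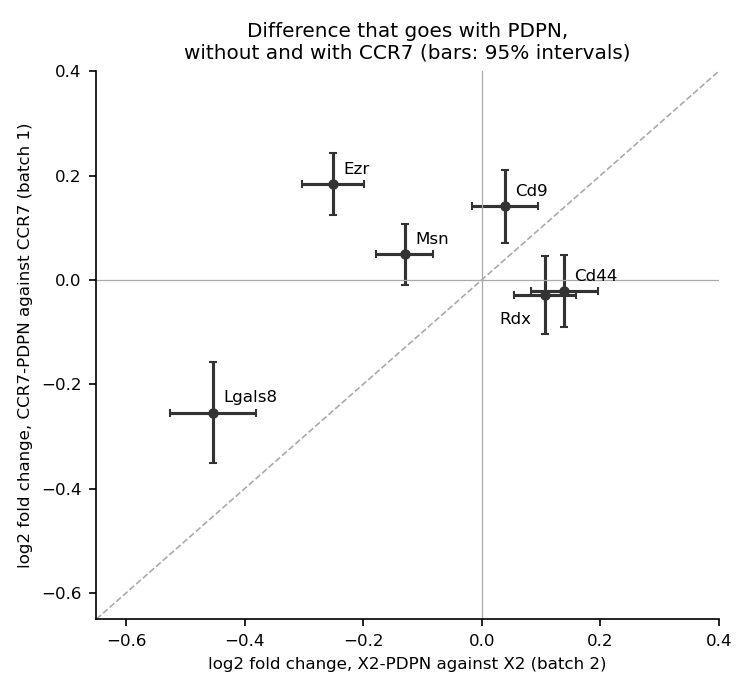
Log2 fold change of the 6 partners in CCR7-PDPN against CCR7 (vertical axis, batch 1) and in X2-PDPN against X2 (horizontal axis, batch 2), with 95% intervals; the dashed line marks equal values. Ezr lies at 0.18 with CCR7 and -0.25 without it, while Lgals8 lies below 0 on both axes.

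CCR7-PDPN and X2 were sequenced in both batches, and for the partners the values returned closely. Ezr was higher in CCR7-PDPN by 0.29 ± 0.029 in batch 1 and 0.26 ± 0.026 in batch 2, Rdx by 0.44 ± 0.036 and 0.43 ± 0.026, Cd44 differed by -0.35 ± 0.033 and -0.36 ± 0.029, and Lgals8 by -0.48 ± 0.046 and -0.48 ± 0.036. The difference between batches lay between -0.030 and 0.052 for the 6 partners, and edgeR called 0 of 13690 genes, with 293 at an unadjusted p under 0.05, while DESeq2 also called 0. This test was chosen after seeing the data. Whether batch 2 used new cultures is not said in the labels. Pairs of X2 libraries had counts that differed by 2.07 to 4.84 times sampling noise, as chi-square over its degrees of freedom, within a batch and 2.88 to 5.74 between batches, and pairs of CCR7-PDPN libraries 3.27 to 7.17 and 3.24 to 10.1.

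Ranked by mean TPM, the 6 groups of a gene form 5 neighbouring pairs, and over the 7 genes 12 of these 35 pairs did not overlap in their libraries. For Ezr the order from high to low was CCR7-PDPN of both batches, CCR7, X2 of both batches and X2-PDPN, and only the repeats of 1 derivative overlapped. For Msn only X2-PDPN, at the bottom, was apart from its neighbour. Cd44 ran from X2-PDPN over X2 to CCR7 and CCR7-PDPN, and the last 2 derivatives overlapped. Cd9 had no neighbouring pair without overlap in TPM, but in CPM CCR7-PDPN of batch 1 (mean 500) lay apart from CCR7 (mean 453). Levels were set across batches here without a correction.

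Across the 24 libraries, the log2 CPM of Ezr went with that of Msn (Pearson r = 0.90) and against that of Cd44 (r = -0.89), and Rdx also went against Cd44 (r = -0.86). Pdpn went against Lgals8 (r = -0.95) and with Rdx at r = 0.50, whereas its r with Ezr, Msn, Cd44 and Cd9 lay between -0.28 and 0.19. These are descriptions over 6 groups of technical replicates that share derivative and batch, with no test. By the same measure, among 10532 genes, the genes most like Pdpn were Lpin1, a phosphatidate phosphatase (r = 0.987), Pmvk, a mevalonate pathway kinase (r = 0.986), Fads2, a fatty acid desaturase (r = 0.983), Ptgfrn, the CD9 partner described above (r = 0.982), and Rdh11, a retinol dehydrogenase (r = 0.981). Mean Lpin1 was 41.3 CPM in X2, 48.7 in CCR7, 85.0 in the CCR7-PDPN libraries of batch 1 and 96.2 in X2-PDPN.

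Among the genes most like Ezr were Plin3 (r = 0.981), which encodes a lipid droplet coat protein, and Cap1 (r = 0.979), an actin cyclase-associated protein. For Msn they were Ranbp9, Ccnd2 and Cox10, at r = 0.931 to 0.914, and for Rdx Etfa, Sacm1l and Pdpr, at r = 0.987 to 0.984. Etfa and Sacm1l lie on chromosome 9 like Rdx, and Pdpr lies on chromosome 8. The 3 genes most like Cd44, Dock9, Top2b and Slc39a14 (r = 0.991 to 0.984), all lie on chromosome 14, whereas Cd44 is on chromosome 2. For Cd9 they were Etnk1, Pam and Abhd8, at r = 0.897 to 0.885. Lgals8 was most like Tmcc3 (r = 0.978), B2m (r = 0.976) and Nedd4l (r = 0.975), and B2m, the light chain of MHC class I, stood at 768 CPM in X2, 567 in CCR7 and 414 in CCR7-PDPN of batch 1 and at 403 in X2-PDPN.

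Of 21 listed regulators that have been linked to Pdpn transcription, 20 were tested. In CCR7-PDPN against CCR7, 9 rose and 7 fell, with a median of 0.084 against -0.0033 for all genes, of which 41.6% were called. In X2-PDPN against X2 9 rose and 6 fell, with a median of 0.10 against 0.0012 and beside 56.8% of all genes called. Jund, an AP-1 subunit, fell in both, by 0.24 ± 0.035 (adjusted p = 1.2e-05) and 0.65 ± 0.043 (adjusted p = 3.7e-10). Hif1a, the hypoxia-regulated factor, rose in both, by 0.21 ± 0.045 (adjusted p = 0.0016) and 0.15 ± 0.027 (adjusted p = 9.2e-06), and by 0.52 ± 0.046 in CCR7 against X2 (adjusted p = 4.2e-08). Sp1 rose by 0.31 ± 0.029 in X2-PDPN against X2 (adjusted p = 2.5e-12) and had a difference of 0.023 ± 0.043 in CCR7-PDPN against CCR7 that was not called. Tgfb2, a ligand of the TGF-beta family, fell by 1.02 ± 0.16 in CCR7-PDPN against CCR7 (adjusted p = 2.9e-05), from 1.08 to 0.517 TPM. Its level was already lower in CCR7 than in X2 of batch 1, at 3.88 TPM, and it stood at 2.40 TPM in X2-PDPN. Prox1, the lymphatic regulator of podoplanin, had at most 1 count in a batch 1 library.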

How the data were processed

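Per the labels and the study's methods, RNA was extracted with a column kit, and stranded poly(A) libraries were read as single-end reads of 75 bases and mapped to GRCm38/mm10. The authors deposited raw counts per Ensembl gene, in 1 table per batch, with no normalization and no pooling. The aligner and the counter's strand setting are not given in the sources used here. The batch 2 table lists 13915 genes, all of them in the 55471 of batch 1, and at least 99.94% of the batch 1 counts fall on them. Positions and exonic lengths are those of the batch 1 table. GENCODE M21 gave exon overlaps, and RefSeq (GRCm38.p6) gave promoters.

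The 24 libraries had 22275468 to 35721027 counts, TMM factors of 0.986 to 1.017 and a biological coefficient of variation of 0.0471 in batch 1 and 0.0322 in batch 2. Intervals of read ratios (95%, exact) and the limit of 3 counts cover counting error only. TPM was computed over the 13915 shared genes. The quasi-likelihood test of edgeR 4.0.16 (R 4.3.3) was run inside each batch, on its 3 groups, after filterByExpr and TMM scaling and with robust fits, with Benjamini-Hochberg adjustment over 13261 or 13314 genes. A gene was called at an adjusted p under 0.05. The SE was obtained by dividing the size of the log2 fold change by the root of its F value. The test of differences between differences used 6 groups and 13690 genes.

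The members, the 12 gene lists and the tests were chosen with earlier results of these data known. The text names the 7 members, up to 4 tested genes of each list by level and up to 3 past the fold threshold by size, and the 5 (Pdpn) or 3 genes most like each member by Pearson r of log2 CPM (prior count 2, mean of at least 1). The results of 1 list and of 1 gene that this rule names are not reported here. Nherf1 and Nherf2 were matched through older symbols. Genes with 0 or few counts were named from the lists after their values were seen. On simulated data, 99 of 100 genes with a true log2 change of 0.5 were recovered in CCR7-PDPN against CCR7, 100 of 100 in X2-PDPN against X2 and 86 of 100 in the test of differences between differences, with 13, 8 and 5 unchanged genes called. The changed genes were drawn from those with a mean above 50 counts, and all genes had the same spread. Recovery at lower counts or with unequal spread was therefore not measured. Libraries of a group differed by 2.07 to 22.7 in chi-square per degree of freedom over 36 pairs, so none was a copy of another. Tried as alternatives were DESeq2 1.42.0, scaling by RLE or by the upper quartile, no filter or at least 50 counts in 4 libraries, fits of 2 groups, a replicate block, each library left out, and the median of genes within 5 Mb subtracted. Figures used Python 3.11.15 and matplotlib 3.10.9.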

Additional observations from a re-analysis of the deposited data

Results flagged for a closer look

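The differences that go with PDPN were not the same with CCR7 as without it for 5 of the 6 partners, by the test of CCR7-PDPN minus CCR7 (batch 1) against X2-PDPN minus X2 (batch 2) in edgeR, which called 40.8% of all genes. On the log2 scale the value was 0.44 for Ezr (adjusted p = 3.7e-12), 0.18 for Msn (5.6e-05), 0.20 for Lgals8 (0.0044), -0.13 for Rdx (0.013) and -0.16 for Cd44 (0.0038). The tested genes within 5 Mb of Rdx had a median of -0.073 and chromosome 9 one of -0.11 in the same test, which leaves -0.060 for Rdx after subtraction. For Pdpn it was -1.34, which is given without a test because the cells were sorted on PDPN, and the 4 CCR7 libraries held 49 Pdpn reads in all and the 4 X2 libraries of batch 2 held 19. Batch and CCR7 background cannot be told apart in these values.

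In X2-PDPN, 1 library lay apart from the other 3 in Msn, at 878 CPM in replicate 2 against 920 to 925 CPM, and its gap took 0.888 of the range of the group. Of 42 such groups of 4 libraries 1 was past the limit, and chance passes it in about 1 of 20. The fall of Msn in X2-PDPN against X2 lay between -0.14 and -0.11 with any 1 library left out.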

How the results depend on the processing

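Counted over the 7 members, and so with Pdpn, on which the cells were sorted, the number called in each comparison stayed within 1.5 times its value under all alternatives run: DESeq2, scaling by RLE or by the upper quartile, both other filters, fits of only 2 groups, the replicate block and each library left out. With single libraries left out it stayed at 6 in CCR7 against X2, 4 in CCR7-PDPN against CCR7, 6 in X2-PDPN against X2 and 5 in CCR7-PDPN against X2 of batch 2, and ranged from 5 to 7 in CCR7-PDPN against X2 of batch 1, from 4 to 5 in CCR7-PDPN against X2-PDPN and from 6 to 7 in the test of differences between differences. The shares of all genes called, 40.8% to 64.8%, are given with the counts of the 6 partners. The sign changed for 2 values, neither of them called, which were Cd9 in the test of differences between differences after the subtraction given below and Msn in CCR7 against X2. Msn ranged from -0.0064 to 0.027 with single libraries left out, negative only without CCR7 replicate 4. Msn in CCR7-PDPN against X2 of batch 1 (0.063) passed the threshold at an adjusted p of 0.049 in DESeq2, 0.038 with only the 2 groups and 0.023 to 0.047 without CCR7 replicate 1, CCR7 replicate 4 or CCR7-PDPN replicate 1. Cd9 lost its call in CCR7-PDPN against X2 of batch 1 without any of 5 single libraries (adjusted p 0.067 to 0.12), and in CCR7-PDPN against X2-PDPN without any of 3 (0.054 to 0.18). The cause was not tested. Subtracting the median of the genes within 5 Mb moved 25 values, that of Rdx in CCR7 against X2 to 0.13 and that of Cd9 in the test of differences between differences to -0.14.

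The replicate numbers did not pair the libraries, since same-numbered libraries correlated at -0.097 to 0.083 in their deviations and 0 pairs were above 0.1. With the replicate block, Msn in CCR7-PDPN against X2 of batch 1 (0.063) had an adjusted p of 0.046 and Cd9 in the test of differences between differences (0.11) one of 0.02, and no other member changed its call. The block moved the genes called in CCR7 against X2 from 6534 to 6356. Pdpn reads in X2 and CCR7 were few, at most 8 and 20 per library, which limits ratios against them.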
